A study of Homo sapiens with 9 samples.

Results

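The genes described here encode the BCL2 family, a group of caspases, the mitochondrial proteins released in cell death and the inhibitor of apoptosis (IAP) proteins. They are 33 genes chosen by symbol, and all 33 had at least 1 probe, 68 of the 48799 probes on the array. Of the 33, 28 were tested, among 13076 tested features in all. A feature was tested when its brightest probe had a detection p-value under 0.05 on at least 3 of the 9 arrays, and 5 genes did not reach that: BIK, BMF, HRK, BBC3 and CYCS.

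RNA came from MDA-MB-231, an established human breast cancer cell line, 72 h after transfection with a small interfering RNA (siRNA). Luc cells received an siRNA against luciferase as the control, KD1 cells the siRNA numbered 1 against KDM5A and KD2 cells the siRNA numbered 2 against it, with 3 Illumina bead arrays a group. KDM5A, also named RBP2 or JARID1A, is a histone demethylase that acts on methylated lysine 4 of histone H3. The level of KDM5A is not analysed here, so the depth of each knockdown is not given. All values come from this 1 cell line, and the labels do not say whether the arrays of a group came from separate cultures, so the tests take in no more than the spread among arrays, and that spread may be technical.

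The mitochondrial pathway of apoptosis turns on the balance within the BCL2 family. Pro-survival members such as BCL2, BCL2L1 (BCL-XL) and MCL1 hold back BAX and BAK1, the effectors that open the outer mitochondrial membrane, and the BH3-only proteins oppose the pro-survival members or engage the effectors. Once the membrane opens, cytochrome c binds APAF1 to form the apoptosome, which activates caspase-9 and through it the executioner caspases, while IAP proteins such as XIAP restrain caspases.

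Of 6 markers expected in the cell line, VIM, CD44, AXL, CAV1 and LOX were detected on all 9 arrays and SPARC on 0. Of 7 genes expected to be low in it, the hormone receptor genes ESR1 and PGR were detected on 0 arrays, CDH1 on 2 and GATA3 on 4. The other genes expected to be low, EPCAM, KRT19 and ERBB3, were detected on all 9, against that expectation. Of the leukocyte genes, CD14 was detected on 7 arrays, LYZ on 2, PTPRC on 1 and CD3E on 0. Of the fibroblast genes, PDGFRA was detected on 9 arrays, DCN on 2, COL1A1 on 1 and COL1A2 and LUM on 0. Between 29.8% and 35.9% of probes were detected on an array, and no array held the values of another. The KD1 arrays had the lowest shares, 29.8% to 31.0%, against 31.5% to 35.9% on the Luc and KD2 arrays. Their lowest detected signals were the highest, at 5.20 to 5.26 on the log2 scale, against 5.03 to 5.18. The part of this in the KD1 values was not tested. All 9 shared 1 slide, where KD1 took positions G, I and K and the other groups A to F, so position and KD1 cannot be told apart.

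Levels below are log2 background-corrected, quantile-normalized intensities of the brightest probe of a gene, and are not comparable between genes. A gene was called at an adjusted p under 0.05 in limma's moderated test, with Benjamini-Hochberg adjustment across the 13076 features. Both comparisons against the control use the same 3 Luc arrays, so their values are set side by side only. With KD1, 3 of the 28 tested members were called (10.7%, against 16.5% of all features), all 3 of them lower and all 3 pro-death genes: BCL2L11, PMAIP1 and APAF1. BCL2L11 passed the detection filter only through its Luc arrays. With KD2, 8 of the 28 were called (28.6%, against 22.4% of all features): BIRC2, BAD, CASP6, CASP9, APAF1 and BCL2L12 were higher, and BCL2 and BIRC6 lower. Between KD1 and KD2, 8 of the 28 were called (28.6%, against 27.4%), and BID replaced BAD among the 8. The count called the same way with each siRNA was 0 of 28 (5.41% of all features, with 11.5% at an unadjusted p under 0.05 in each, where 3 members, BCL2, BCL2L2 and BIRC6, passed). On the brightest probes, 11 members were called in at least 1 comparison and 17 in none. The arrays of KD1 and Luc did not overlap for 9 of the 28 members (35.1% of all features), those of KD2 and Luc for 12 (40.2%) and those of KD1 and KD2 for 10 (42.2%).

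**Figure D1:**
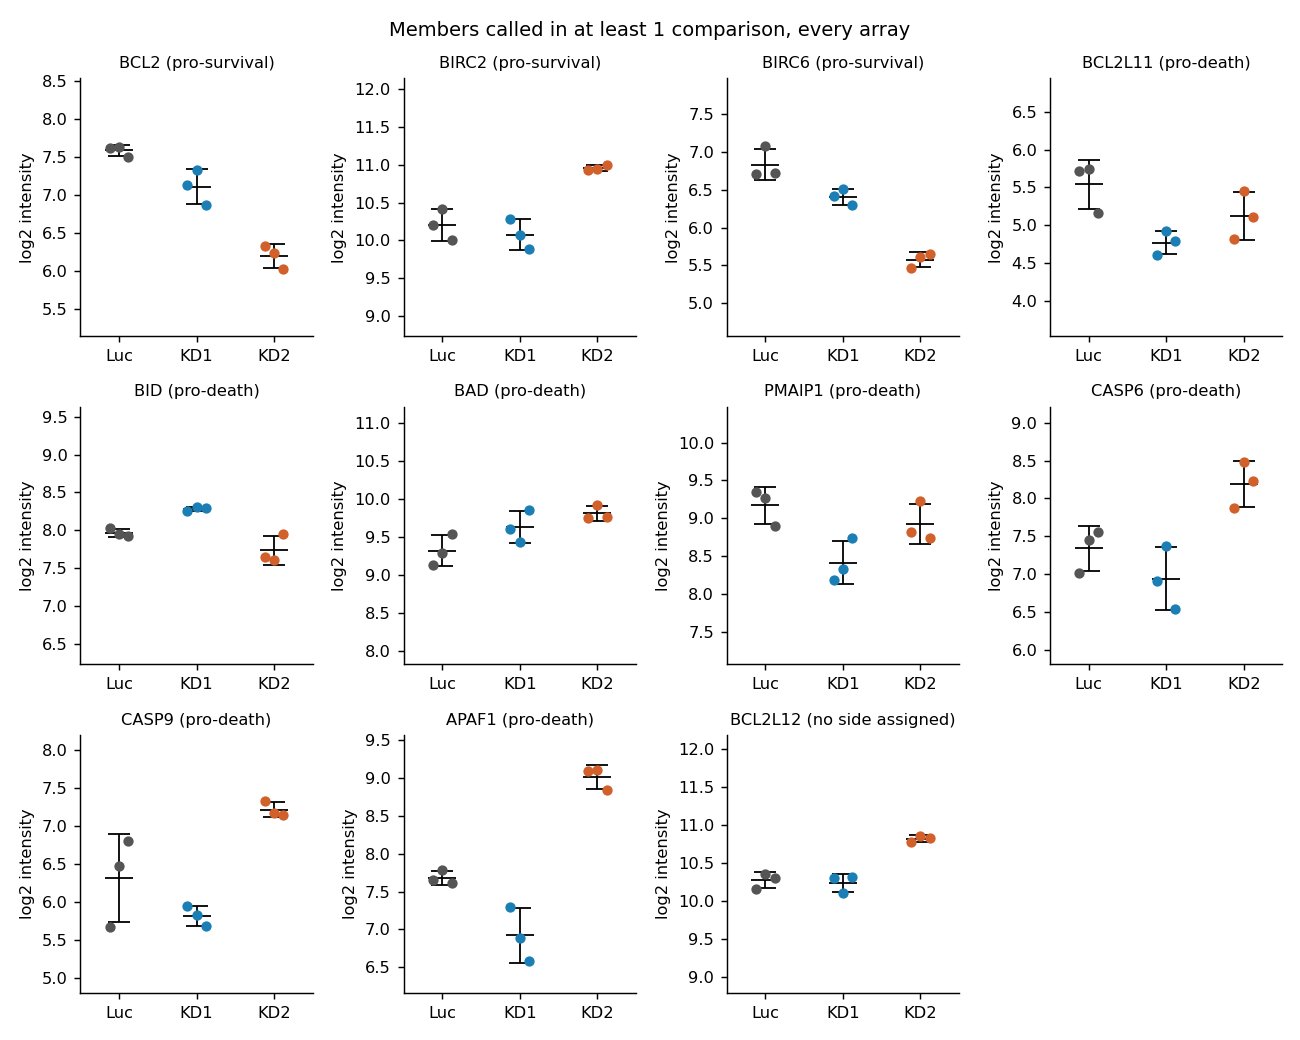
Log2 intensity (y axis, each panel spanning the same number of log2 units) of the 11 members called in at least 1 comparison, in the 3 arrays of Luc, KD1 and KD2 (points), with the mean and SD (bars). APAF1 lies below Luc with KD1 and above it with KD2, while BCL2 and BIRC6 are lowest with KD2.

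The promoters of 3 genes are printed as contrasts in direction, not as the largest changes: APAF1, called in opposite directions with the siRNAs, and the IAP genes BIRC6 and BIRC2, called in opposite directions with KD2. Each is the 250 bases before the gene's start in RefSeq (GRCh38.p14), read 5′ to 3′ on the gene's strand, with CCGCCC or its reverse complement GGGCGG in capitals. CCGCCC is the DNA word that the ARID domain of KDM5A is known to bind, and its reverse complement is also the core of the GC box read by Sp1, so the letters do not tell the factors apart.
APAF1 (chr12:98645040-98645289, plus strand): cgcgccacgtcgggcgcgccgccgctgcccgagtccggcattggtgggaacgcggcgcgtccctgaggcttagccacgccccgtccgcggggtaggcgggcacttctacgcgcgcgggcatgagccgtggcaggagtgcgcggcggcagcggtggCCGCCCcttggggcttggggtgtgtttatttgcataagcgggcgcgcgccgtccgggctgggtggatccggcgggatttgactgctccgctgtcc
BIRC6 (chr2:32356773-32357022, plus strand): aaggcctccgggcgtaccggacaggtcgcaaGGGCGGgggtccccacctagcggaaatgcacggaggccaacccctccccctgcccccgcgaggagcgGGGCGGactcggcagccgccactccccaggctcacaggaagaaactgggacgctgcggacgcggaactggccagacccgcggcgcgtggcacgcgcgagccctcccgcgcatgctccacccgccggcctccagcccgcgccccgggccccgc
BIRC2 (chr11:102346964-102347213, plus strand): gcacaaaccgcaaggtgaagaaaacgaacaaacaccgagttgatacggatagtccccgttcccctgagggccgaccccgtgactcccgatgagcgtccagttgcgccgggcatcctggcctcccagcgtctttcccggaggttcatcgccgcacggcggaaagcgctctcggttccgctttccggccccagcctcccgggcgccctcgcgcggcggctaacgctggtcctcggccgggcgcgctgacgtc
The window of APAF1 holds 1 such word, that of BIRC6 2 and that of BIRC2 0. Of the 28 members matched to the promoter table, 17 hold at least 1 (60.7%), against 42.3% of 27305 promoter windows of the same length. The windows of BCL2, BOK, BID, BBC3, CASP6, CASP9, DIABLO and BCL2L13 lay wholly or partly within the annotated span of the gene. The word was present for 7 of the 10 members called with KD1 or KD2 against Luc and for 8 of the 14 matched members that were tested and not called. The members' windows also had a higher median GC content (64.8%) than all windows (58%), and a match is a description of the letters and not of binding.

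Among the pro-survival BCL2 proteins, BCL2, the founding member of the family, was lower with KD2. Its level was 7.62, 7.64 and 7.51 on the Luc arrays, 7.13, 7.33 and 6.87 with KD1, and 6.33, 6.24 and 6.02 with KD2. All KD2 arrays lay below all KD1 arrays, and these below all Luc arrays, with no overlap. The log2 fold change was -1.39 with KD2 (SE 0.15, adjusted p = 2.13e-04 by limma, 2.63-fold lower) and -0.48 with KD1 (SE 0.15, adjusted p = 0.0531, not called), and KD1 exceeded KD2 by 0.92 (adjusted p = 0.00145). The second tested BCL2 probe, fitted with all 16164 detected probes, gave -1.17 with KD2 (adjusted p = 0.0208) and -0.37 with KD1 (0.460), and a further 2 BCL2 probes were not detected on enough arrays. The KD1 difference of BCL2 was called in 8 of the 20 alternatives, among them the deposited normalized values (-0.21, adjusted p = 0.0362).

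BCL2L2, which encodes BCL-W, had levels of 8.64, 8.41 and 8.04 with Luc, 7.78, 7.95 and 7.10 with KD1, and 7.50, 7.96 and 7.62 with KD2. Neither siRNA's arrays overlapped Luc, and the arrays of KD1 and KD2 overlapped each other. The log2 fold changes, -0.75 with KD1 (adjusted p = 0.0559) and -0.66 with KD2 (adjusted p = 0.0718), were not called by limma. The read-through transcript BCL2L2-PABPN1 shares sequence with this gene, and the probe could not be assigned between them from the annotation.

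The other pro-survival BCL2 genes were not called in any comparison. BCL2L1 had levels of 12.94, 13.21 and 13.20 with Luc, 12.99, 13.23 and 13.30 with KD1 and 13.36, 13.45 and 13.14 with KD2, and all groups overlapped (log2 fold changes 0.06 and 0.20, SE 0.15 each). A second, dimmer BCL2L1 probe gave 0.31 with KD1 (adjusted p = 0.167 by limma) and 0.37 with KD2 (0.0849). On that probe neither siRNA's arrays overlapped Luc, and all lay higher. MCL1, whose protein is turned over rapidly, had levels of 9.22, 8.86 and 8.65 with Luc, 9.22, 9.37 and 9.08 with KD1 and 9.25, 9.38 and 9.18 with KD2. One MCL1 Luc array thus lay within the siRNA arrays, and the log2 fold changes of 0.32 and 0.36 were not called (adjusted p = 0.215 and 0.139 by limma). BCL2A1, an NF-kB target in other cells, differed from Luc by 0.17 with KD1 and -0.06 with KD2.

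The IAP genes moved in different directions with KD2. BIRC2, which encodes cIAP1, a ubiquitin ligase of the TNF receptor complex, had levels of 10.20, 10.41 and 9.999 with Luc, 10.28, 10.07 and 9.88 with KD1, and 10.93, 10.95 and 10.999 with KD2. Its KD2 arrays lay above all others, and the KD1 and Luc arrays overlapped. BIRC2 was 1.69-fold higher with KD2 (log2 fold change 0.75, SE 0.15, adjusted p = 0.00565), with a second probe at 0.78 (adjusted p = 0.00195). With KD1 the change was -0.13 (adjusted p = 0.622), while the second probe gave 0.29 (0.147), and KD1 lay 0.88 below KD2 (adjusted p = 0.00193).

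BIRC6, a giant IAP protein that conjugates ubiquitin, had levels of 6.70, 7.07 and 6.72 with Luc, 6.42, 6.51 and 6.29 with KD1, and 5.47, 5.61 and 5.66 with KD2. The 3 groups were separate, in the same order as for BCL2. The log2 fold change of BIRC6 was -1.26 with KD2 (SE 0.14, adjusted p = 2.71e-04, 2.39-fold lower) and -0.43 with KD1 (adjusted p = 0.0652, not called), and KD1 lay 0.83 above KD2 (adjusted p = 0.00190). BIRC6 has 1 probe, and its KD2 levels lay not far above the lowest detected signals on those arrays (5.14 to 5.18). XIAP, an IAP that binds caspases directly, was close to the detection limit: 1 Luc, 1 KD1 and 2 KD2 arrays detected it. XIAP levels were 5.58, 4.65 and 4.40 with Luc, 4.87, 6.02 and 5.20 with KD1 and 5.50, 4.52 and 5.45 with KD2 and overlapped throughout. Its log2 fold changes of 0.49 with KD1 and 0.28 with KD2 each had an SE of 0.38 and were not called (adjusted p = 0.434 and 0.657).

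None of the effector genes was called. BAX, a pore-forming effector, had levels of 10.34, 10.43 and 10.34 with Luc, 10.48, 10.84 and 11.04 with KD1 and 10.63, 10.52 and 10.66 with KD2. Every siRNA array lay above every Luc array, and the log2 fold changes were 0.42 (adjusted p = 0.0898) and 0.24 (adjusted p = 0.305). A second BAX probe gave 0.54 with KD1 (adjusted p = 0.0914) and 0.12 with KD2 (0.714). On the deposited normalized values the KD1 difference of BAX passed the threshold (0.38, adjusted p = 0.0169). BAK1 had levels of 6.86, 7.31 and 7.08 with Luc, 7.43, 6.80 and 6.28 with KD1 and 7.11, 6.76 and 7.16 with KD2, with all groups overlapping. BOK, a BAX-like member, differed from Luc by -0.01 and -0.02 (SE 0.13 each).

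Of 8 BH3-only genes, 4 were tested. PMAIP1, which encodes NOXA, a BH3-only protein that binds MCL1, was 1.69-fold lower with KD1. Its levels were 9.34, 9.27 and 8.90 with Luc, 8.18, 8.33 and 8.74 with KD1, and 8.82, 9.23 and 8.74 with KD2. The KD1 arrays lay below all Luc arrays, and KD2 overlapped Luc. The log2 fold change was -0.75 with KD1 (SE 0.20, adjusted p = 0.0269) and -0.24 with KD2 (adjusted p = 0.421), and KD1 against KD2 was not called (-0.51, adjusted p = 0.0815). That last difference was called in 8 of the 20 alternatives, among them the deposited normalized values (-0.34, adjusted p = 0.0370). The second PMAIP1 probe gave -0.35 with KD1 and was not called (adjusted p = 0.221). The PMAIP1 call was lost when replicate 1 or 2 of either Luc or KD1 was left out (adjusted p 0.0705 to 0.0884) and without the detection filter (0.0528).

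BCL2L11 encodes BIM, a BH3-only protein that binds all the main pro-survival members. Its levels were 5.72, 5.74 and 5.16 with Luc, 4.61, 4.92 and 4.79 with KD1 and 4.82, 5.46 and 5.10 with KD2. It was detected on 3 Luc arrays, on 0 KD1 arrays and on 1 KD2 array, so its level with KD1 has only an upper bound. BCL2L11 was at least 1.24-fold lower with KD1 (adjusted p = 0.0286 for the fitted difference by limma), where the bound sets the Luc mean against the lowest detected signal on the KD1 arrays. Luc replicate 3, at 5.16, itself lay below that signal (5.20 to 5.26), so the bound holds for the Luc mean only. The gene passed the detection filter only through the Luc arrays, where it was highest, so the filter favoured a lower value with KD1. The call was lost without background correction (adjusted p = 0.0502), on the deposited normalized values (0.103), without the detection filter (0.0567), with median scaling over detected probes (0.0827), and when Luc replicate 1 or 2, or replicate 1 or 3 of KD1, was left out (0.0676 to 0.0952).

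BAD, a BH3-only protein held inactive by phosphorylation, had levels of 9.13, 9.29 and 9.53 with Luc, 9.61, 9.44 and 9.86 with KD1 and 9.75, 9.92 and 9.77 with KD2. Its KD2 arrays lay above all Luc arrays, and KD1 overlapped both. BAD was 1.41-fold higher with KD2 (log2 fold change 0.50, SE 0.15, adjusted p = 0.0428) and not called with KD1 (0.32, adjusted p = 0.194). A second BAD probe gave 0.71 with KD2 (adjusted p = 0.0248) and another 0.17 (0.757). The former was also called between the siRNAs, KD1 against KD2 (-0.63, adjusted p = 0.0362), where the brightest probe was not. The BAD call was lost when any 1 of 6 arrays was left out (Luc replicate 1 or 2, KD1 replicate 1, or any KD2 array; adjusted p 0.0553 to 0.131), with median scaling (0.133) and without the detection filter (0.0877).

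BID, the BH3-only protein that caspase-8 cleaves to link death receptors to mitochondria, was called only between the siRNAs. BID levels were 8.03, 7.95 and 7.93 with Luc, 8.25, 8.31 and 8.29 with KD1 and 7.64, 7.61 and 7.95 with KD2. The KD1 arrays lay above all others, and KD2 overlapped Luc. KD1 was 1.46-fold above KD2 (log2 difference 0.55, SE 0.13, adjusted p = 0.0101), while KD1 and KD2 differed from Luc by 0.31 (adjusted p = 0.126) and -0.24 (0.224). A second BID probe gave 0.49 between the siRNAs (adjusted p = 0.0210). The remaining BH3-only genes BIK, HRK, BMF and BBC3 (PUMA) were not tested: BIK and HRK were detected on 0 arrays, BBC3 on 1 Luc array, and the brightest BMF probe on 1 Luc and 1 KD2 array. Another BMF probe was detected on 0 Luc, 1 KD1 and 2 KD2 arrays and was not called.

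**Figure D2:**
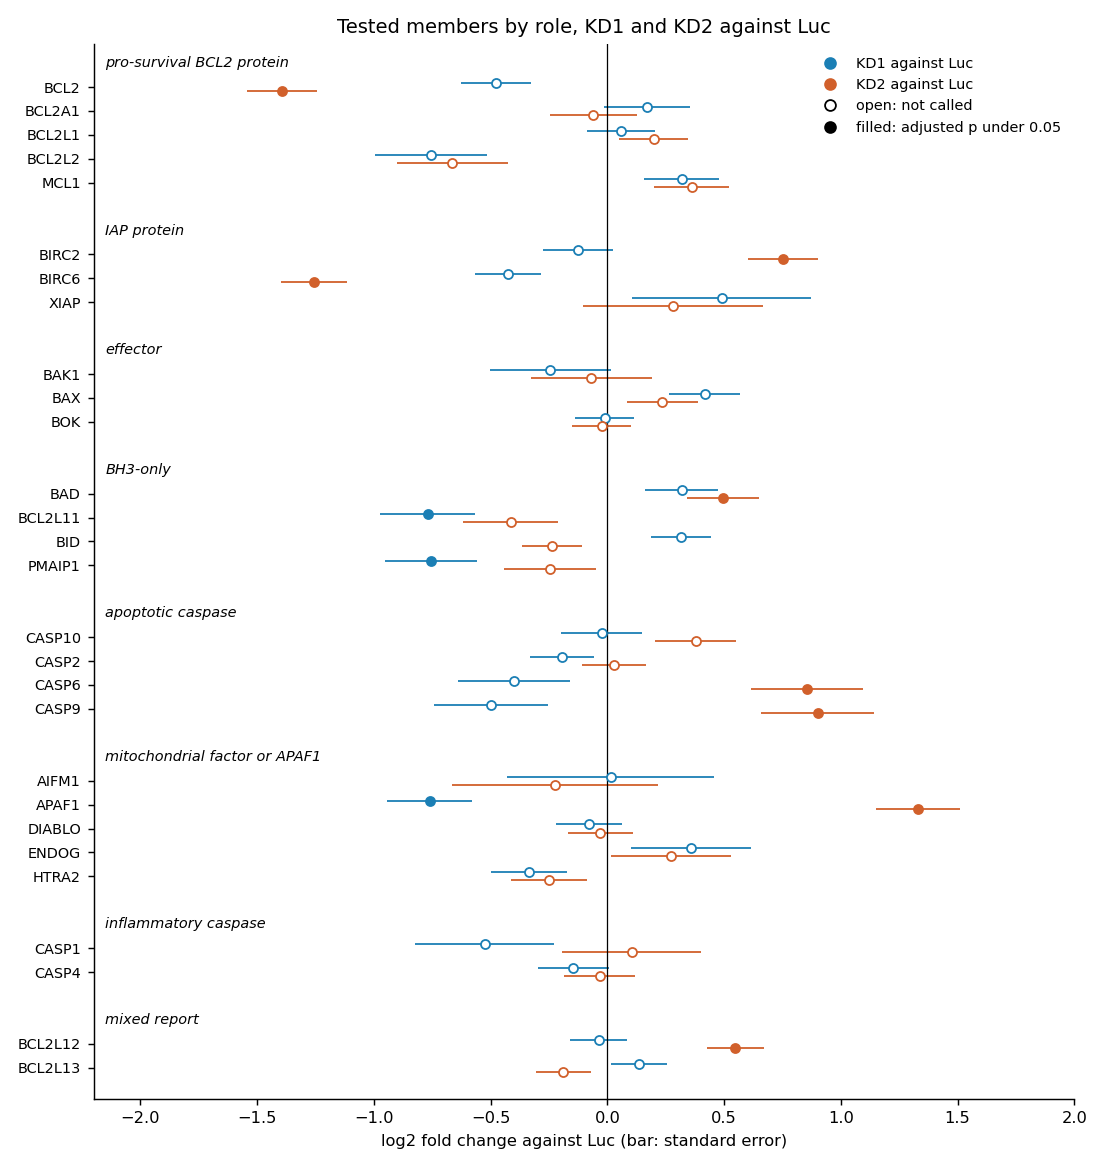
Log2 fold change against Luc (x axis, bars SE) of the 28 tested members, grouped by role, for KD1 (blue) and KD2 (orange), filled where the adjusted p was under 0.05. The called KD1 values (BCL2L11, PMAIP1 and APAF1) lie below 0, while 6 of the 8 called KD2 values lie above it.

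APAF1, the scaffold of the apoptosome, differed most among the members. Its level was 7.65, 7.79 and 7.61 with Luc, 7.30, 6.89 and 6.58 with KD1, and 9.09, 9.11 and 8.84 with KD2. The 3 groups did not overlap, with KD1 below Luc and KD2 above it. Relative to Luc, APAF1 was 1.69-fold lower with KD1 (-0.76 on the log2 scale, SE 0.18, adjusted p = 0.0181) and 2.51-fold higher with KD2 (1.33, SE 0.18, adjusted p = 7.95e-04). The siRNAs differed by -2.09, KD1 against KD2 (SE 0.18, adjusted p = 4.26e-05), which is 4.26-fold. Of all tested features, 1.25% were called in opposite directions with the siRNAs, and APAF1 was the 1 member among them. The rise with KD2 was called under all 20 alternatives run, and the fall with KD1 was lost without Luc replicate 2 (adjusted p = 0.0618) or KD1 replicate 3 (0.0568). The values rest on 1 APAF1 probe, since the other was detected on 0 arrays.

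CASP9, the initiator caspase that the apoptosome activates, had levels of 5.67, 6.48 and 6.81 with Luc, 5.95, 5.82 and 5.68 with KD1, and 7.33, 7.17 and 7.15 with KD2. Its Luc arrays spread widely (SD 0.58) and overlapped KD1, and all KD2 arrays lay above the other 6. CASP9 was 1.87-fold higher with KD2 (log2 fold change 0.90, SE 0.24, adjusted p = 0.0238) and not called with KD1 (-0.50, adjusted p = 0.195), and KD1 lay 2.64-fold below KD2 (adjusted p = 0.00215). The call against Luc was lost without any 1 of the KD2 arrays (adjusted p 0.0521 to 0.0684) and with the mean of the gene's probes (0.0561). Without Luc replicate 1, the lowest Luc array, the CASP9 value with KD1 was -0.82 and was called (adjusted p = 0.0118), and that with KD2 was 0.57 and stayed called. A dim second CASP9 probe gave 0.14 with KD2 (adjusted p = 0.797).

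CASP6, an executioner caspase that cleaves lamins, had levels of 7.01, 7.45 and 7.56 with Luc, 6.91, 7.37 and 6.53 with KD1 and 7.88, 8.48 and 8.22 with KD2. KD2 lay above all other arrays, and KD1 overlapped Luc. CASP6 was 1.81-fold higher with KD2 (log2 fold change 0.85, SE 0.24, adjusted p = 0.0279), and its value with KD1 was not called (-0.40, adjusted p = 0.294). KD1 lay 2.38-fold below KD2 (adjusted p = 0.00351). A second CASP6 probe gave 0.84 with KD2 (adjusted p = 0.0399) and another 0.49 (0.226). The call against Luc was lost when Luc replicate 1 or 2, or replicate 2 or 3 of KD2, was left out (adjusted p 0.0533 to 0.0960) and without the detection filter (0.0574). CASP2 and CASP10, initiator caspases, were not called on their brightest probes: CASP2 differed from Luc by -0.20 with KD1 and 0.03 with KD2, and CASP10 by -0.02 and 0.38. A second CASP2 probe gave -0.44 with KD1 (adjusted p = 0.0530), with no overlap with Luc, and was called between the siRNAs, KD1 against KD2 (-0.44, adjusted p = 0.0376).

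The other mitochondrial death factors were not called in any comparison. DIABLO, whose product binds and blocks IAP proteins, differed from Luc by -0.08 with KD1 and -0.03 with KD2, and HTRA2, a protease of the intermembrane space, by -0.34 and -0.25. A second DIABLO probe gave 0.01 and 0.16. Another, the dimmest tested, gave -0.28 with KD1 and -0.44 with KD2 (adjusted p = 0.0736 by limma, not called), with all KD2 arrays below Luc. ENDOG, a mitochondrial nuclease gene, differed by 0.36 and 0.27, and AIFM1, a flavoprotein that can pass to the nucleus, by 0.01 and -0.22 with an SE of 0.44. The probe of CYCS, the cytochrome c gene, was detected on 0 Luc, 2 KD1 and 0 KD2 arrays and was not tested. That gene has many processed pseudogenes.

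CASP1 and CASP4, caspases of inflammation rather than of apoptosis, were not called on their brightest probes. CASP4 differed from Luc by -0.15 and -0.03. The tested CASP1 probes, which could also read the near-identical CARD16 and CARD17 transcripts, disagreed. On the brighter probe CASP1 differed from Luc by -0.53 with KD1 (adjusted p = 0.267). On the other one, named here after its values were seen, the levels were 6.65, 6.04 and 5.97 with Luc, 5.09, 4.93 and 5.02 with KD1 and 6.62, 6.48 and 6.10 with KD2, and no KD1 array detected it. It was dimmer only with KD1 (mean 5.01 against 5.68), and not with Luc (6.22 against 6.21) or KD2 (6.40 against 6.31). Choosing the brightest probe thus favoured the one with the smaller change with KD1. On that other probe CASP1 was at least 1.99-fold lower with KD1 than with Luc (adjusted p = 0.00340 for the fitted difference by limma). Between the siRNAs it was at least 2.25-fold lower with KD1 (adjusted p = 8.19e-04 for the fitted difference by limma).

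BCL2L12 and BCL2L13 have been reported to act on either side, and like CASP1 and CASP4 they were counted on neither. BCL2L12 had levels of 10.16, 10.36 and 10.31 with Luc, 10.30, 10.10 and 10.31 with KD1 and 10.77, 10.86 and 10.83 with KD2. KD2 lay above all other arrays, and KD1 overlapped Luc. BCL2L12 was 1.46-fold higher with KD2 (log2 fold change 0.55, SE 0.12, adjusted p = 0.00958), with the other probes at 0.57 (adjusted p = 0.0436) and 0.62 (0.0160), and KD1 lay 0.58 below KD2 (adjusted p = 0.00568). The KD2 call was lost with median scaling (adjusted p = 0.0515). BCL2L13, a mitochondrial membrane protein, differed from Luc by 0.13 and -0.19 and was not called.

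**Figure D3:**
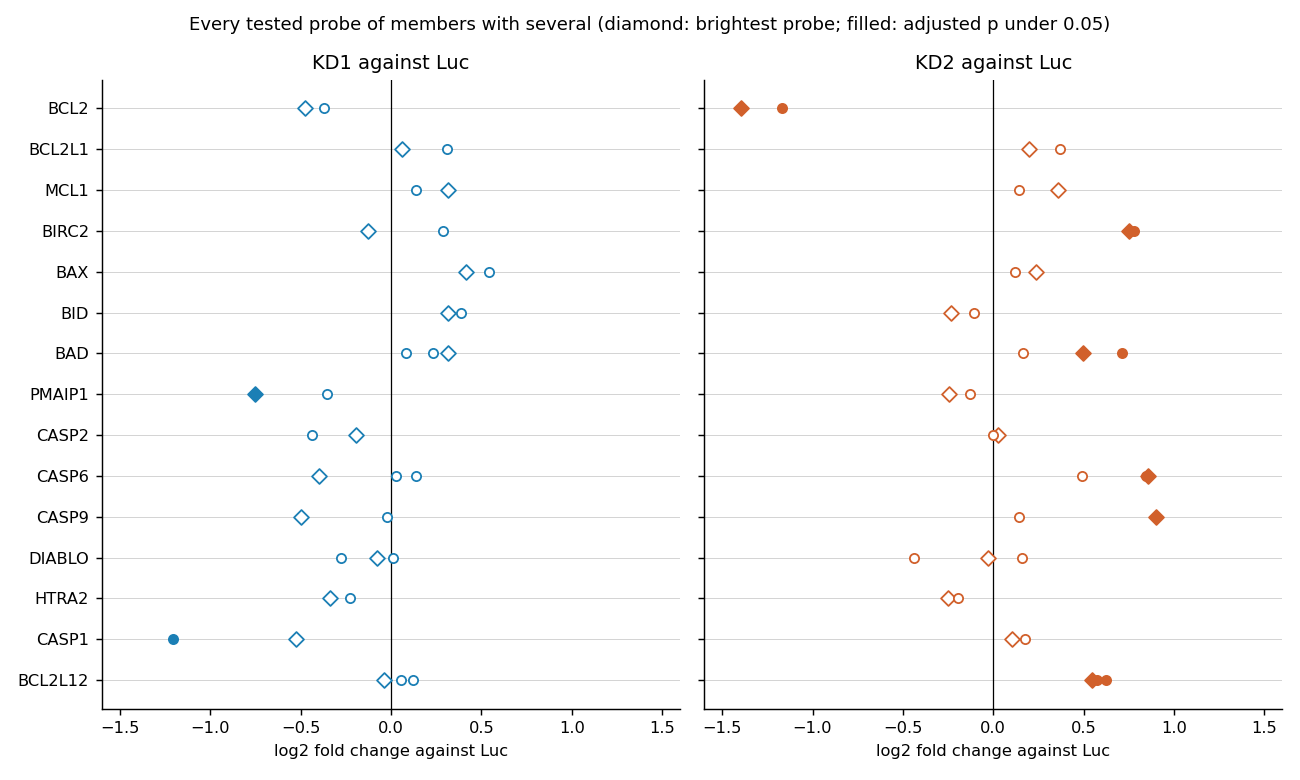
Log2 fold change against Luc (x axis) of every tested probe of the 15 members with at least 2, for KD1 (left) and KD2 (right); diamonds are the probes used, circles the others, filled where the adjusted p over 16164 probes was under 0.05. With KD2 a second probe of BCL2, BIRC2, BAD, CASP6 and BCL2L12 lies on the same side as the probe used and passes the threshold, and that of CASP9 does not pass it.

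Of 8 pro-survival genes, all tested, 4 lay above 0 and 4 below with KD1 (50.6% of all features lay above 0), 0 were called, and the median log2 fold change was -0.03. With KD2, 4 lay above and 4 below (49.9% of all features above), 1 was called higher (BIRC2) and 2 lower (BCL2 and BIRC6), with a median of 0.07. Of 16 tested pro-death genes among 21, 5 lay above 0 and 11 below with KD1, 0 were called higher and 3 lower, with a median of -0.14. With KD2, 8 lay above and 8 below, 4 were called higher (BAD, CASP6, CASP9 and APAF1) and 0 lower, with a median of 0.00. The pro-death counts and median with KD1 include BCL2L11, which passed the detection filter only through its Luc arrays. The filter thus favoured a lower value for that gene. The median over all tested features was 0.00 with each siRNA, and 7.23% of them were called higher and 9.27% lower with KD1, and 10.9% and 11.5% with KD2. The array-to-array SD of the median level was 0.17 for the pro-death and 0.24 for the pro-survival genes. That SD is of single arrays, while the medians above are of differences between means of 3 arrays. It therefore does not measure the spread of these medians, which was not tested. With median scaling the pro-death median with KD1 was -0.35, while that of all features moved to -0.19. RNA from all cells of a culture was measured together, so fewer cells with a transcript and less transcript per cell cannot be told apart.

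Of 60 other genes of apoptosis on a list separate from the members, 54 were on the array and 45 were tested. With KD1, 1 was higher and 3 were lower, 8.89% of the 45 against 16.5% of all features, and with KD2, 5 were higher and 7 lower, 26.7% against 22.4%. Without KD2 replicate 2, that count of 12 became 7. FOXO3, a transcription factor gene with BH3-only genes among its known targets, rose by 0.89 with KD1 (adjusted p = 7.61e-04), from 10.18, 10.07 and 10.11 on the Luc arrays to 11.06, 10.99 and 10.96. PAK2, which encodes a kinase activated by caspase cleavage, was lower with KD1 (-0.66, adjusted p = 0.0103). XAF1, whose product binds XIAP, was called lower with each siRNA, but only 1 KD1 and 1 KD2 array detected it, against 3 Luc arrays, so its levels with the siRNAs lay at the detection limit. Like BCL2L11, XAF1 passed the detection filter only through the Luc arrays, where it was highest.

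SEPTIN4, a gene with an isoform (ARTS) that binds XIAP, was, like APAF1, lower with KD1 and higher with KD2. Its levels were 6.14, 6.03 and 6.01 with Luc, 5.36, 5.46 and 5.46 with KD1 and 6.89, 6.94 and 7.02 with KD2, with no overlap among the 3 groups. SEPTIN4 changed by -0.63 with KD1 (adjusted p = 0.00467) and 0.89 with KD2 (adjusted p = 5.79e-04), and the probe annotation does not name the isoform. GSN, the gene for the actin-severing caspase substrate gelsolin, rose by 1.28 with KD2 (adjusted p = 5.83e-04), from 8.26, 7.87 and 8.51 to 9.50, 9.53 and 9.45. BAG3, a co-chaperone gene, rose by 0.63 (adjusted p = 0.00836) and BNIP3L, a mitophagy receptor gene, by 0.53 (0.0257).

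DFFA, API5 and PDCD4 were among the 7 genes lower with KD2. DFFA encodes ICAD, the inhibitor of the nuclease that cuts DNA in apoptosis, and its levels were 8.90, 8.81 and 9.02 with Luc, 8.57, 8.12 and 8.63 with KD1 and 7.17, 7.57 and 7.66 with KD2. DFFA changed by -1.44 with KD2 (adjusted p = 4.70e-04) and by -0.47, not called, with KD1 (adjusted p = 0.0992). API5, an apoptosis inhibitor gene, changed by -0.94 with KD2 (adjusted p = 0.00117) and PDCD4, a translation inhibitor gene, by -0.82 (7.95e-04). With KD1 these changed by -0.09 and -0.21 and were not called.

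The sizes depend on the scale of the values. On the deposited normalized values, which keep the background, the KD2 differences were -0.51 for BCL2, -0.34 for BIRC6, 0.68 for BIRC2, 0.83 for APAF1, 0.30 for CASP9, 0.45 for CASP6, 0.40 for BAD and 0.49 for BCL2L12, all called there in the same direction. With background left in here, these differences were larger, among them -0.75 for BCL2, -0.54 for BIRC6, 1.01 for APAF1 and 0.45 for CASP9. The deposited values may therefore be on another scale, and their differences may not be log2 fold changes. That was not tested. The KD1 count of 3 members became 0 without Luc replicate 2 and 1 without KD1 replicate 3, and the KD2 count of 8 became 5 without KD2 replicate 2 or KD2 replicate 3. APAF1, BCL2, BIRC2, BIRC6 and BCL2L12 with KD2 against Luc were called whichever of the 9 arrays was left out.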

How the data were processed

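Deposited per the file headers were linear probe intensities, summarised over beads, and a detection p-value for each. From the values, the authors had neither subtracted background nor normalized them. A second deposited table holds normalized values that share 1 distribution, taken here as log2, and lumi is named per the submitters' processing notes. With limma 3.58.1 in R 4.3.3, neqc estimated background through the detection p-values, then applied an offset of 16, quantile normalization and log2. Entrez identifiers and a RefSeq table (GRCh38.p14) gave current symbols: of 48799 probes, 28094 had 1 symbol, 13 several and 20692 none. The brightest probe stood for each symbol. Group means were estimated from the 9 arrays together (lmFit, eBayes) and compared two-sided, with Benjamini-Hochberg adjustment over 13076 features, and a second fit ran over 16164 probes. The number of arrays limits the precision. The fit was tested on simulated data with 200 changed features. At a true log2 change of 0.5 it recovered 10.4% (KD1 against Luc), 0% (KD2 against Luc) and 4.48% (KD1 against KD2). At a log2 change of 1 it recovered 80.6%, 82.1% and 74.6% in the same order. In these data far more features were called, 2157, 2927 and 3579 in the same order, so the adjustment passed larger unadjusted p-values than in the simulation. BAD, for example, was called with KD2 at 0.50. The recovered shares therefore do not measure the power in these data. A change near 0.5 could still go uncalled. Named are members called in any comparison, BCL2, BCL2L1, MCL1, BAX, BAK1, XIAP, APAF1 and CASP9, and up to 4 called genes a direction of the other apoptosis list. Members and lists were chosen with earlier results of these data known. Replicate numbers did not pair the arrays: 1 of 9 same-numbered pairs had deviations correlated above 0.1 (lowest -0.02, highest 0.11).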

Additional observations from a re-analysis of the deposited data

Results flagged for a closer look

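APAF1 differed between the siRNAs by -2.09 on the log2 scale, KD1 against KD2, because it was lower than Luc with KD1 and higher with KD2. The difference was tested in the same limma fit (adjusted p = 4.26e-05) and had 3 of 3 KD1 arrays below and 3 of 3 KD2 arrays above all Luc arrays. The KD1 arrays lay at other slide positions than the Luc and KD2 arrays, and the part of position in the KD1 value was not tested.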

How the results depend on the processing

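Over 20 alternatives, 1 of them (median scaling over detected probes) chosen after seeing the data, the 8 calls between KD1 and KD2 and those of BCL2, BIRC2, BIRC6 and APAF1 with KD2 were made each time. Members called with KD1 against Luc, 3 here, were 5 with background left in, on the deposited values, with detection on all 9 arrays, with an intensity trend and with the replicate block, 6 with an offset of 50, 7 with median scaling and 1 without the detection filter, and 0 to 4 when arrays were left out in turn. With KD2 they were 5 to 9, and between the siRNAs 8 to 9, when arrays were left out. Members called the same way with each siRNA, 0 here (3 at an unadjusted p under 0.05), were 2 with background left in, on the deposited values, with an offset of 50 and with the replicate block, 3 with median scaling and with detection on all arrays, 1 with an intensity trend and with median scaling over detected probes, and 0 to 1 when arrays were left out; BCL2, BCL2L2 and BIRC6, all lower, made up these calls. Other apoptosis genes called with KD1, 4 here, were 7 with background left in and on the deposited values and 8 with median scaling and with an intensity trend, and 4 to 6 when arrays were left out. With KD2, 12 here, they were 19 on the deposited values and 7 to 12 when arrays were left out. Median scaling moved the median of all features by -0.19 with KD1 and -0.09 with KD2, and the pro-death median with KD1 to -0.35. It left 13.4% of the features called with KD1 higher in place of 43.8%, 31.7% with KD2 in place of 48.6% and 33.4% between the siRNAs in place of 48.5%, and median scaling over detected probes gave 54.6% with KD1. Of the uncalled differences of named members, BCL2 with KD1 and PMAIP1 between the siRNAs were called in 8 alternatives each, BAX with KD1 in 5, BIRC6 with KD1 and MCL1 with KD2 in 2 each and CASP9 with KD1 in 1. Uncalled values changed sign 16 times. With KD1 these were BCL2L1 (-0.081 with median scaling, and -0.032 to 0.148 when arrays were left out), BCL2L12 (0.019 with median scaling over detected probes, 0.047 with the mean of a gene's probes, and -0.093 to 0.032 when arrays were left out), BIRC2 (0.081 with the mean of a gene's probes) and BAK1 (-0.541 to 0.035 when arrays were left out). With arrays left out they were also BAK1 with KD2 (-0.181 to 0.055) and, between the siRNAs, BAK1 (-0.472 to 0.105), MCL1 (-0.114 to 0.028) and XIAP (-0.124 to 0.461). The cause of these changes was not tested. Replicate numbers did not pair the arrays, so the block is given here only. BCL2L11 and XIAP were not tested with detection on all arrays.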
